A study of Glycine max with 12 samples.

Results

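Long noncoding RNAs (lncRNAs) read from the strand opposite to the protein-coding gene LOC100789918 were examined in young soybean pods. The assembly gave them as 3 isoforms of 1 gene, MSTRG.41534.1, MSTRG.41534.2 and MSTRG.41534.3, which were 3 of 11072 lncRNA transcripts listed and 3 of the 271 listed as antisense (class code x). The isoforms were selected on their measured level, since they were 3 of the 4 most abundant lncRNAs of the table. Their high level is therefore a description and not a finding. No other listed transcript carried the same gene number or the same host gene.

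Young pods came from MT72, a mutant with little linolenic acid, and from the wild type JN18, a high-oil variety, at 40 d and 30 d after flowering. The groups were MT_40 (libraries MT_4, MT_5 and MT_6), MT_30 (MT_7, MT_8 and MT_9), JN_40 (JN_4, JN_5 and JN_6) and JN_30 (JN_7, JN_8 and JN_9), with 3 biological replicates each. MT72 is a mutant line of the fourth generation after exposure of soybean to ethyl methanesulfonate, a chemical that changes single bases at many sites of the genome, and the sources used here do not name the variety that was treated. Effects of the low linolenic acid and of other changes in MT72 therefore cannot be told apart, and the number of pods and plants in a library is not stated. Only lncRNAs were analysed here, so the tissue label could not be checked against protein-coding markers.

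Linolenic acid is made from linoleic acid by omega-3 fatty acid desaturases, and the young seeds inside the pod are where soybean oil is laid down. An antisense lncRNA is transcribed from the DNA strand opposite to another gene and can overlap that gene's exons. In plants such RNAs are known from single loci. The best studied are the COOLAIR transcripts opposite the flowering repressor FLC in Arabidopsis, which are spliced in alternative forms and take part in silencing of that gene. The sources used here give no product for LOC100789918, and no role of its antisense transcripts was tested.

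The 3 isoforms had nearly the same outline. All were listed on the minus strand of chromosome 6 with 2 exons, so that 1 long intron was removed from each. MSTRG.41534.1 ran from 2196929 to 2203702, a span of 6774 bases that gave a spliced RNA of 401 bases. MSTRG.41534.2 ran from 2196931 to 2203631 and was 328 bases long after splicing. MSTRG.41534.3 ran from 2196987 to 2203597 and was 309 bases long. The sources used here do not name the build these positions refer to.

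The lengths limit where the isoforms can have differed. MSTRG.41534.1 and MSTRG.41534.2 had introns of the same length, 6373 bases, and MSTRG.41534.1 reached 71 bases further at its 5′ end and 2 bases further at its 3′ end, which add up to the whole length difference of 73 bases. MSTRG.41534.3 began 34 bases inside the 5′ end of MSTRG.41534.2 and stopped 56 bases before its 3′ end, but was only 19 bases shorter, because its intron was 71 bases shorter (6302 bases). The intron was long for this class: the 2-exon antisense lncRNAs had a median intron of 1682.5 bases, and 81 of 234 had one above 6000 bases. The spliced length of MSTRG.41534.2 was the median of all antisense lncRNAs, 328 bases.

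The coding scores lay close to 0 for all 3. The CPC scores were 0.0230 for MSTRG.41534.1, 0.0252 for MSTRG.41534.2 and 0.161 for MSTRG.41534.3, and the CNCI scores ran from -0.0221 to -0.0164. Transcripts with coding potential had been removed before deposit, so the upper limit of these scores follows from that choice. In the RefSeq annotation of assembly Glycine_max_v4.0 the host is protein-coding and lies between LOC100786714 and LOC100794124, both protein-coding. The nearest lncRNAs of the table were far less abundant. MSTRG.41523.1 lay 158005 bases below and averaged 1.08 FPKM over the 12 libraries, and MSTRG.41542.1 lay 32378 bases above and averaged 0.752 FPKM. FPKM, the fragments per kilobase of transcript scaled to the mapped fragments of the library, is a level already set per length.

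The exon boundaries are not in the table used, so the bases that the isoforms share were not counted. Where a read fits more than 1 isoform, StringTie divides it between them, so the level of each isoform depends on that division. The summed FPKM depends on it to a lesser degree, since each isoform is scaled by its own length, and the summed estimated reads and their percentage of aligned bases do not depend on it. Depth, as inferred from coverage and FPKM, was similar in all libraries, at 10.0 to 12.3 aligned Gb (gigabases). The isoforms together took 125501 to 345801 estimated reads in a library, so counting error was small beside the spread between libraries.

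The libraries labelled JN_30 were less like each other than those of the other groups. Over the other lncRNAs, the log2 levels of each library of MT_40 and MT_30 correlated best with the remaining libraries of its own group (mean r 0.766 to 0.817). JN_7 had a mean r of 0.700 with MT_30 and 0.560 with the other JN_30 libraries. JN_8 had 0.701 with MT_40 and 0.593 with its own group, and JN_9 had 0.555 with JN_40 and 0.498 with its own group. In JN_40, JN_6 was also closer to MT_40 (0.756) than to its own group (0.722). Whether libraries were exchanged between groups was not tested, and the labels were kept, so that every value of JN_30 holds only as far as its labels do. Comparisons that include JN_30 are given with and without JN_7 where its omission moved a value by over 1.5 times, because JN_7 also stood apart at LOC100789918.

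MSTRG.41534.1, the longest isoform, was the least abundant of the 3 in MT_40 and was several times higher in 8 of the other 9 libraries. Its level was 526, 463 and 350 FPKM in the libraries of MT_40 and 2215, 2502 and 5452 FPKM in those of MT_30. In JN_40 it was 3902, 5455 and 4161 FPKM, and in JN_30 it was 304, 2572 and 2610 FPKM. The 3 libraries of MT_40 and library JN_7 were low and did not overlap with the remaining 8 libraries. The highest level was 17.9 times the lowest.

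MSTRG.41534.3, the shortest isoform, showed nearly the reverse order. It had 5518, 5215 and 4128 FPKM in MT_40 and 640, 647 and 2190 FPKM in MT_30. Its level was 598, 1368 and 973 FPKM in JN_40 and 4087, 628 and 327 FPKM in JN_30. The same 4 libraries, those of MT_40 and JN_7, were high, and MT_9 lay between them and the rest.

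MSTRG.41534.2, the most abundant lncRNA of the table, varied least among the isoforms. It had 6533, 6696 and 4989 FPKM in MT_40, 1832, 2276 and 3018 FPKM in MT_30, 4391, 5509 and 4314 FPKM in JN_40, and 8174, 2741 and 4595 FPKM in JN_30. Its highest level was 4.46 times its lowest, against 16.9 times for MSTRG.41534.3. It was the first-ranked lncRNA of the whole table in 9 of the 12 libraries, with MT_7, MT_8 and MT_9 as the exceptions.

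**Figure D1:**
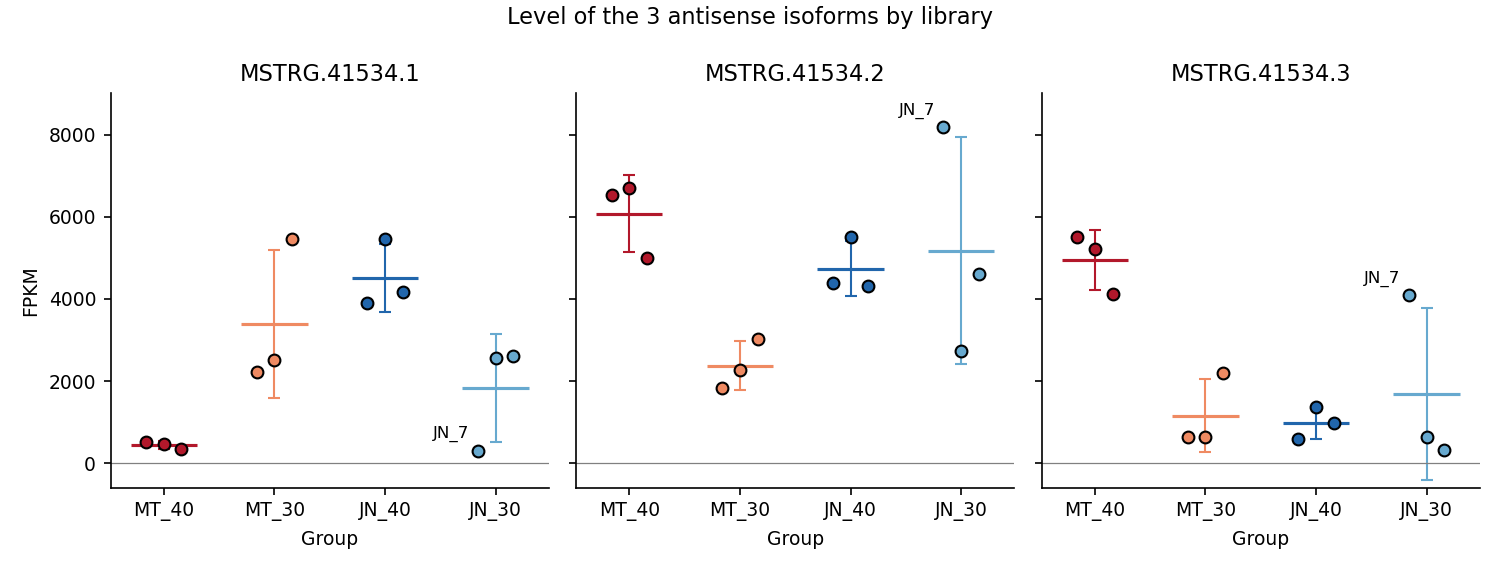
Level (FPKM, linear scale) of each isoform in every library, with points for libraries, long horizontal lines for group means and bars for ± 1 SD (n = 3; a bar below 0 is the arithmetic SD and not a possible level). MSTRG.41534.1 was low in MT_40 (350 to 526 FPKM) and in JN_7 (304 FPKM), and MSTRG.41534.3 was high in the same libraries (4087 to 5518 FPKM).

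Across the 12 libraries the log2 level of MSTRG.41534.1 ran against that of MSTRG.41534.3 (Pearson r -0.73) and of MSTRG.41534.2 (r -0.57), while MSTRG.41534.2 and MSTRG.41534.3 went together (r 0.64). Without JN_7 these values were -0.70, -0.44 and 0.59. These are descriptions over libraries in 4 groups, of isoforms that share reads.

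The isoform levels were compared between groups with limma on log2 of FPKM plus 0.1 over 9142 lncRNAs, with p-values adjusted by the Benjamini-Hochberg method over all of them. None of the 3 isoforms passed an adjusted p of 0.05 in any comparison. In bulk tissue, fewer cells that make a transcript and less of it per cell cannot be told apart.

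In MT72 the order of the isoforms differed between the stages in every library: MSTRG.41534.2 was first and MSTRG.41534.1 last in MT_40, and MSTRG.41534.1 was first and MSTRG.41534.3 last in MT_30. All 3 isoforms had libraries that did not overlap between MT_40 and MT_30, where 28.6% of all lncRNAs tested also did not overlap. MSTRG.41534.1 was lower in every library of MT_40 than in every library of MT_30, with a log2 fold change of -2.82 ± 1.06 (SE) and a limma adjusted p of 0.207. MSTRG.41534.3 was higher in MT_40, by 2.34 ± 1.08 (SE, limma adjusted p = 0.319), and MSTRG.41534.2 had a log2 fold change of 1.37 ± 1.27 (SE, limma adjusted p = 0.662). By limma 0 of 3 isoforms were called, and 2.5% of all lncRNAs tested were. An unadjusted p under 0.05 was found for 2 of 3 isoforms and for 1404 of the 9142 lncRNAs tested. For MSTRG.41534.1 the call depended on the fit. It passed in a fit of MT_40 and MT_30 alone (limma adjusted p = 0.0392), which leaves the spread of the JN18 libraries out, and over its alternatives the adjusted p ran from 0.0392 to 0.646.

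In JN18 the comparison of JN_40 with JN_30 turned on library JN_7. MSTRG.41534.1 was the only isoform without overlap, against 13.1% of all lncRNAs, with a log2 fold change of 1.81 ± 1.06 (SE, limma adjusted p = 0.526). Without JN_7 the difference was 0.78 (limma adjusted p = 0.786). MSTRG.41534.2 and MSTRG.41534.3 had log2 fold changes of 0.01 ± 1.27 and -0.03 ± 1.08 (SE), and without JN_7 they were 0.41 and 1.03. No isoform had an unadjusted p under 0.05, against 1092 of the 9142 lncRNAs tested, and 0.197% of all were called.

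At 40 d the separation of the mutant from the wild type was again in MSTRG.41534.1 and MSTRG.41534.3. MSTRG.41534.1 was lower in MT_40 than in JN_40 by a log2 fold change of -3.34 ± 1.06 (SE, limma adjusted p = 0.545), and MSTRG.41534.3 was higher by 2.41 ± 1.08 (SE, limma adjusted p = 0.730). Neither overlapped between the groups, against 14% of all lncRNAs. MSTRG.41534.2 differed by 0.35 ± 1.27 (SE) and overlapped. By limma 0 of 3 isoforms were called, and 0.153% of all lncRNAs tested were. Here 2 isoforms had an unadjusted p under 0.05, as had 618 of the 9142 lncRNAs tested. MT_40 stands in this comparison and in that with MT_30, so the 2 are not independent.

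At 30 d none of the isoforms separated the materials. The log2 fold changes of MT_30 over JN_30 were 1.30 ± 1.06 for MSTRG.41534.1, -1.01 ± 1.27 for MSTRG.41534.2 and 0.04 ± 1.08 for MSTRG.41534.3 (SE, limma adjusted p 0.618 to 0.996). Without JN_7 they were 0.27, -0.61 and 1.09. All 3 overlapped, whereas 17.7% of all lncRNAs did not. By limma no isoform was called, and 0.886% of all lncRNAs tested were. None of the isoforms had an unadjusted p under 0.05, against 1222 of the 9142 lncRNAs tested. The confidence intervals were wide and reached from -3.76 to 3.58 on the log2 scale, so that large differences were not detectable with these replicates.

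The stage effect of MT72 minus that of JN18 was -4.64 ± 1.50 (SE) for the log2 level of MSTRG.41534.1 (limma unadjusted p = 0.00841, adjusted p = 0.573). It was 1.37 ± 1.80 for MSTRG.41534.2 and 2.37 ± 1.52 for MSTRG.41534.3 (SE). No isoform was called by limma, and 0.0766% of all lncRNAs tested were. For this difference 1 isoform had an unadjusted p under 0.05, as had 615 of the 9142 lncRNAs tested. Without JN_7 the values were -3.61, 0.96 and 1.31 in the same order.

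**Figure D2:**
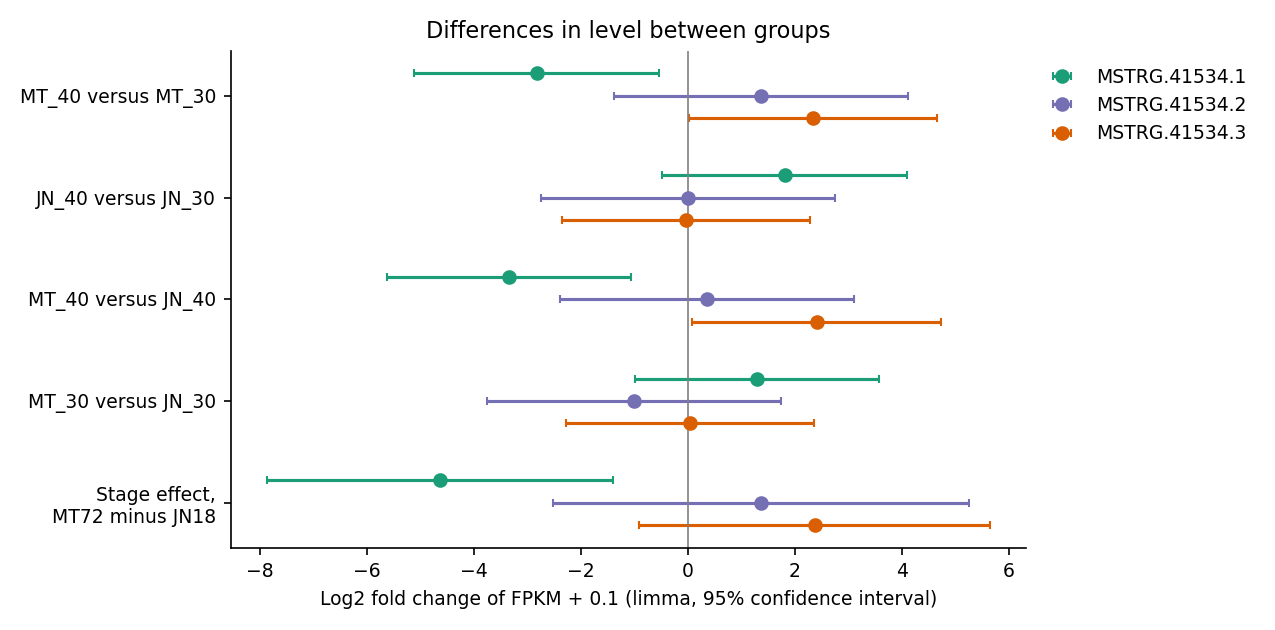
Log2 fold change of FPKM + 0.1 (horizontal axis) for each isoform in the 4 comparisons and in the difference of the stage effects, with limma's 95% confidence intervals as bars. MSTRG.41534.1 lies left of 0 where MT_40 is compared with MT_30 (-2.82) and with JN_40 (-3.34), and MSTRG.41534.3 lies right of 0 in both (2.34 and 2.41), while no isoform passed the adjusted threshold.

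The share of each isoform in the summed FPKM of the 3 was nearly constant within MT_40 and, for MSTRG.41534.1, within JN_40. MSTRG.41534.1 made up 4.18%, 3.74% and 3.69% of the locus in MT_40 and 47.3%, 46.1% and 51.1% in MT_30. It made up 43.9%, 44.2% and 44.0% in JN_40, and 2.42%, 43.3% and 34.7% in JN_30. The share was thus 4.18% or less in MT_40 and JN_7, 34.7% in JN_9, and 43.3% or more in the remaining 7 libraries.

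MSTRG.41534.3 had its highest shares where MSTRG.41534.1 had its lowest. Its share was 43.9%, 42.1% and 43.6% in MT_40, 13.7%, 11.9% and 20.5% in MT_30, 6.72%, 11.1% and 10.3% in JN_40, and 32.5%, 10.6% and 4.35% in JN_30. MSTRG.41534.2 held 51.9%, 54.1% and 52.7% in MT_40, 39.1%, 42.0% and 28.3% in MT_30, 49.4%, 44.7% and 45.7% in JN_40, and 65.1%, 46.1% and 61.0% in JN_30. It was the largest isoform in 9 of the libraries and in every group but MT_30, where MSTRG.41534.1 was larger in all 3 libraries.

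**Figure D3:**
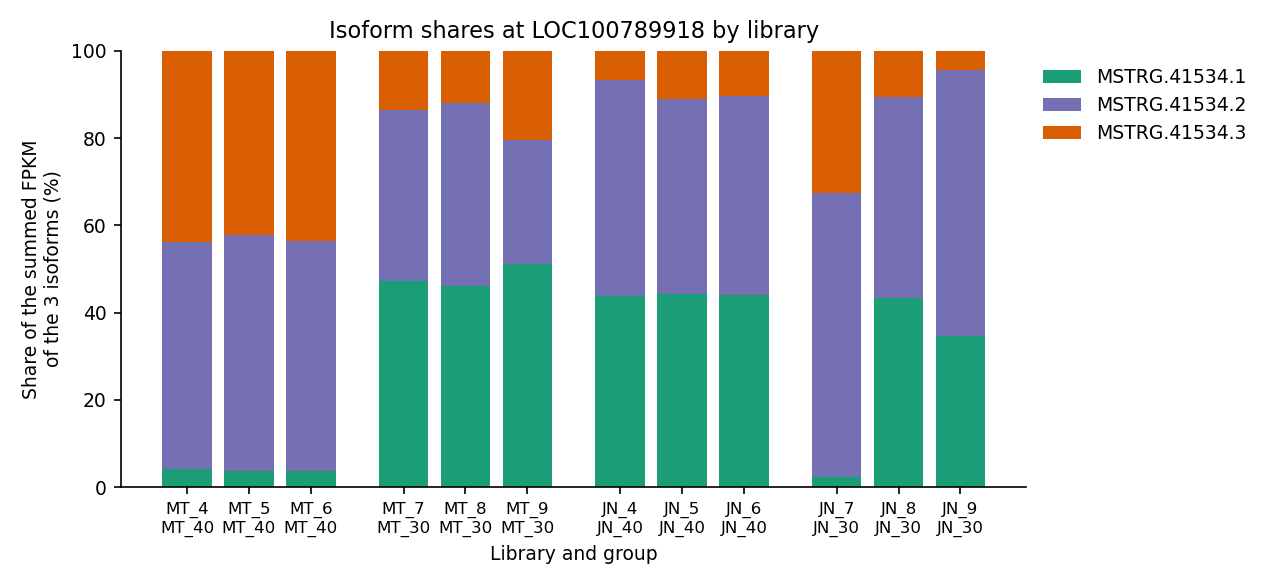
Share (%) of each isoform in the summed FPKM of the 3 isoforms, as stacked bars that reach 100% in each of the 12 libraries. MSTRG.41534.1, at the base, is a thin band in MT_4, MT_5, MT_6 and JN_7 (2.42% to 4.18%) and 34.7% to 51.1% in the other 8 libraries.

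Within MT_40 and JN_40 the replicates were almost alike. The share of MSTRG.41534.1 averaged 3.87% ± 0.269 in MT_40 and 48.2% ± 2.63 in MT_30 (SD, n = 3 each). It averaged 44.1% ± 0.173 in JN_40 and 26.8% ± 21.5 in JN_30 (SD, n = 3 each), or 39.0% ± 6.11 in JN_30 without JN_7 (SD, n = 2). The spread within JN_30 was thus far above that of any other group, and JN_7 made most of it.

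The ratio of the longest to the shortest isoform fell into separate ranges. In MT_40, MSTRG.41534.3 exceeded MSTRG.41534.1 by 3.39 to 3.56 on the log2 scale, and in JN_7 by 3.75. In MT_30 the same log2 ratio was -1.95 to -1.32, in JN_40 it was -2.71 to -2.00, and in JN_8 and JN_9 it was -2.03 and -2.99. No library lay between -1.32 and 3.39. Between its extremes the ratio of MSTRG.41534.3 to MSTRG.41534.1 changed 107-fold over the libraries, that of MSTRG.41534.1 to MSTRG.41534.2 changed 48.5-fold and that of MSTRG.41534.3 to MSTRG.41534.2 changed 11.9-fold.

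Averaged over both materials or both stages, the isoform shares overlapped. The share of MSTRG.41534.1 averaged 24.0% at 40 d and 37.5% at 30 d, a difference of -13.5 points (two-sided exact permutation test within materials, p = 0.31). The share of MSTRG.41534.3 averaged 29.3% in MT72 and 12.6% in JN18, a difference of 16.7 points (two-sided exact permutation test within stages, p = 0.055, and 0.33 after Benjamini-Hochberg adjustment over the 6 comparisons of this kind). The other 4 comparisons had p of 0.12 to 0.65 in the exact test, whose smallest possible p was 0.005. Without JN_7 the share of MSTRG.41534.1 differed by -20.5 points between stages and by -16.0 points between materials, against -9.40 with it (two-sided exact permutation tests without JN_7, p = 0.1 each). That of MSTRG.41534.2 differed by 6.45 points between stages, against 2.83 with JN_7, and by -4.69 points between materials, against -7.30 with it (exact permutation tests without JN_7, p = 0.305 and 0.44). That of MSTRG.41534.3 differed by 14.1 points between stages and by 20.7 points between materials (exact permutation tests without JN_7, p = 0.065 and 0.02, unadjusted). Leaving JN_7 out makes the groups unequal, while each mean was taken over all libraries of a stage or material. The differences without JN_7 therefore mix stage with material, and their permuted values need not centre on 0. No conclusion is drawn from the p-values without JN_7 for that reason.

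Between pairs of groups, where an exact test of 3 libraries against 3 cannot go below p = 0.1, the isoform shares were also compared with limma over 269 isoforms of 83 lncRNA genes. This fit was chosen after the values had been seen. In MT_40 the share of MSTRG.41534.1 lay below that of MT_30, with a difference of -44.3 ± 8.27 points (SE, limma adjusted p = 0.0520). MSTRG.41534.3 was 27.8 points above (SE 6.07, limma adjusted p = 0.0766) and MSTRG.41534.2 was 16.5 points above (SE 4.95, limma adjusted p = 0.366). All 3 isoforms had shares that did not overlap between MT_40 and MT_30, against 16.4% of the 269 isoforms. By limma 0% of the isoforms were called here, although 22 of 269, among them all 3 at LOC100789918, had an unadjusted p under 0.05.

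The spread of JN_30 entered these errors, since all groups share 1 variance for each isoform. Over the 12 omissions of 1 library, the limma adjusted p for MSTRG.41534.1 ran from 1.61e-05 to 0.245 and passed in 2 (without JN_7 and without JN_8), and that for MSTRG.41534.3 ran from 9.18e-04 to 0.325 and passed in 1 (without JN_7). The smallest value of each was that without JN_7, a library of neither group compared, where the SE for MSTRG.41534.1 was 2.52 points and the difference itself the same.

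The comparison of MT_40 with JN_40 had the same form. MSTRG.41534.1 differed by -40.2 points (SE 8.27, limma adjusted p = 0.103) and MSTRG.41534.3 by 33.8 points (SE 6.07, limma adjusted p = 0.0761). Over the 12 omissions the adjusted p for MSTRG.41534.1 ran from 3.59e-05, without JN_7, to 0.453 and passed in 1, and that for MSTRG.41534.3 ran from 1.95e-04, without JN_7, to 0.343 and passed in 2 (without JN_7 and without JN_9). MSTRG.41534.2 differed by 6.35 points (SE 4.95, limma adjusted p = 0.762). All 3 shares did not overlap, against 11.5% of isoforms. Again 0% of isoforms were called by limma, with 21 of 269 and 2 of the 3 at LOC100789918 at an unadjusted p under 0.05.

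The remaining pairs were less separated. Between JN_40 and JN_30 the share of MSTRG.41534.1 differed by 17.3 points (SE 8.27, limma adjusted p = 0.562) and by 5.08 points without JN_7. The other shares differed by -10.8 points (MSTRG.41534.2) and -6.45 points (MSTRG.41534.3), or by -6.99 and 1.91 points without JN_7. It was the only share of the 3 without overlap, against 13.4% of isoforms, and 0.743% of isoforms were called, none of them at LOC100789918. Between MT_30 and JN_30 the share of MSTRG.41534.2 differed by -20.9 points (SE 4.95, limma adjusted p = 0.129) and that of MSTRG.41534.1 by 21.4 points (SE 8.27, limma adjusted p = 0.526). Without JN_7 these differences were -17.1 and 9.20 points, and without JN_8 that of MSTRG.41534.2 was -26.6 points and passed (limma adjusted p = 0.0287). The shares of MSTRG.41534.2 and MSTRG.41534.1 did not overlap, against 15.2% of isoforms. By limma 0% of isoforms were called, with 17 of 269 at an unadjusted p under 0.05. The share of MSTRG.41534.3 overlapped and differed by -0.44 points, or by 7.91 points without JN_7.

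The stage effect on the share of MSTRG.41534.1 differed between the materials. It was -44.3 points in MT72 and 17.3 points in JN18, a difference of -61.6 points (SE 11.7, limma adjusted p = 0.0388), and 1.12% of isoforms were called for this difference. Without JN_7 the difference was -49.4 points (SE 3.78, limma adjusted p = 1.82e-04). The call depended on single libraries: it was kept without JN_7 or without JN_8 and was lost in each of the other 10 omissions, with an adjusted p of up to 0.151. Over all 12 omissions the difference ran from -69.8 to -49.4 points. MSTRG.41534.2 (27.3 points) and MSTRG.41534.3 (34.3 points) had a limma adjusted p of 0.175 each, and each passed in 1 of the 12 omissions, MSTRG.41534.2 without JN_8 (limma adjusted p = 0.0255) and MSTRG.41534.3 without JN_7 (0.0162), with an adjusted p of up to 0.501 and 0.440 in the others.

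Library JN_7 was nearer to MT_40 than to any other group at this locus and not elsewhere, but it lay outside the spread of MT_40. Its isoform shares at LOC100789918 differed from those of MT_40 by a mean of 8.09 points per isoform. The MT_40 libraries differed from each other by 0.739 to 1.21 points. From the other JN_30 libraries JN_7 differed by 24.4 points, from MT_30 by 30.5 points and from JN_40 by 27.8 points. Over the isoforms of the other genes these means were close together, at 9.62 (MT_40), 9.01 (JN_30), 9.27 (MT_30) and 8.94 points (JN_40). Over the levels of the other lncRNAs JN_7 was closest to MT_30. The reason for this was not tested.

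The isoform shares of MSTRG.41534 moved more than most but not more than all. Among the 269 isoforms, the range over libraries was 48.7 points for MSTRG.41534.1 (rank 35), 39.5 points for MSTRG.41534.3 (rank 65) and 36.7 points for MSTRG.41534.2 (rank 79), with a median of 26.2 points. Many of those isoforms are rare. Among the 60 isoforms of the 15 genes with a summed mean above 10 FPKM, the ranks were 12, 16 and 21 and the median 22.4 points. The intergenic gene MSTRG.11696 on chromosome 13, which also has 3 abundant isoforms of 2 exons, kept its shares within 42.5% to 60.2%, 15.2% to 26.9% and 23.3% to 37.8%.

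From the lowest to the highest library, the sum of the 3 isoforms changed by a smaller factor than any of them. Within groups this did not always hold. In proportion to the mean, MSTRG.41534.2 varied less than the sum in MT_30 and JN_40, and MSTRG.41534.3 slightly less in MT_40. The summed level was 12576, 12373 and 9466 FPKM in MT_40, 4686, 5425 and 10659 FPKM in MT_30, 8890, 12331 and 9447 FPKM in JN_40, and 12565, 5942 and 7533 FPKM in JN_30. The highest sum was 2.68 times the lowest, and every pair of groups compared overlapped. The means were 11472 ± 1740 in MT_40 and 6924 ± 3256 in MT_30, and 10223 ± 1847 in JN_40 and 8680 ± 3457 in JN_30 (FPKM, SD, n = 3 each). In order of mean level the groups ran MT_40, JN_40, JN_30 and MT_30, and no neighbours in that order differed beyond their spread. Without JN_7, JN_30 averaged 6738 ± 1125 FPKM (SD, n = 2), below MT_30. The order of JN_30 and MT_30 thus turned on that library.

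These transcripts made up a large part of all lncRNA signal. Over the 12 libraries they took 30.9% of the mean summed lncRNA FPKM, 93.9% of that of all antisense lncRNAs and 92.7% of that of the 608 lncRNAs on chromosome 6. Other antisense lncRNAs had a median of 0.656 FPKM. The most abundant of these, MSTRG.53266.1 opposite mttB, a gene of the mitochondrial genome, averaged 117 FPKM. Because the 3 RNAs are short, they made up a smaller part of the sequenced bases, 0.169% to 0.442% of all aligned bases and 10.8% to 28.0% of the bases in lncRNAs.

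Their share of lncRNA FPKM was lowest in MT_30. It was 36.2%, 35.3% and 32.8% in MT_40, 17.9%, 16.3% and 25.4% in MT_30, 37.5%, 39.5% and 35.5% in JN_40, and 37.1%, 26.1% and 32.4% in JN_30. MT_30 did not overlap with MT_40 or with JN_30. The other lncRNAs also entered that share. Their summed FPKM averaged 21401 in MT_40 and 26920 in MT_30, and 16955 in JN_40 and 17951 in JN_30. Between MT_40 and MT_30 they moved opposite to the isoforms, while both were higher in MT_40 than in JN_40. In JN_30 without JN_7 the other lncRNAs averaged 16270 FPKM and the isoforms 6738 FPKM. As a percentage of aligned bases, which the other lncRNAs do not enter, MT_40 (0.305% to 0.406%) overlapped with MT_30 (0.169% to 0.385%), and MT_30 overlapped with JN_30 (0.212% to 0.407%). Against MT_40, the mean sum of the isoforms was lower in MT_30 and that of the other lncRNAs higher, and both overlapped. Against JN_30, the sum of the isoforms overlapped and that of the other lncRNAs did not. The latter was 21548 to 31260 FPKM in MT_30 and 15752 to 21314 FPKM in JN_30. No test was run on the share because the isoforms were chosen by their level.

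**Figure D4:**
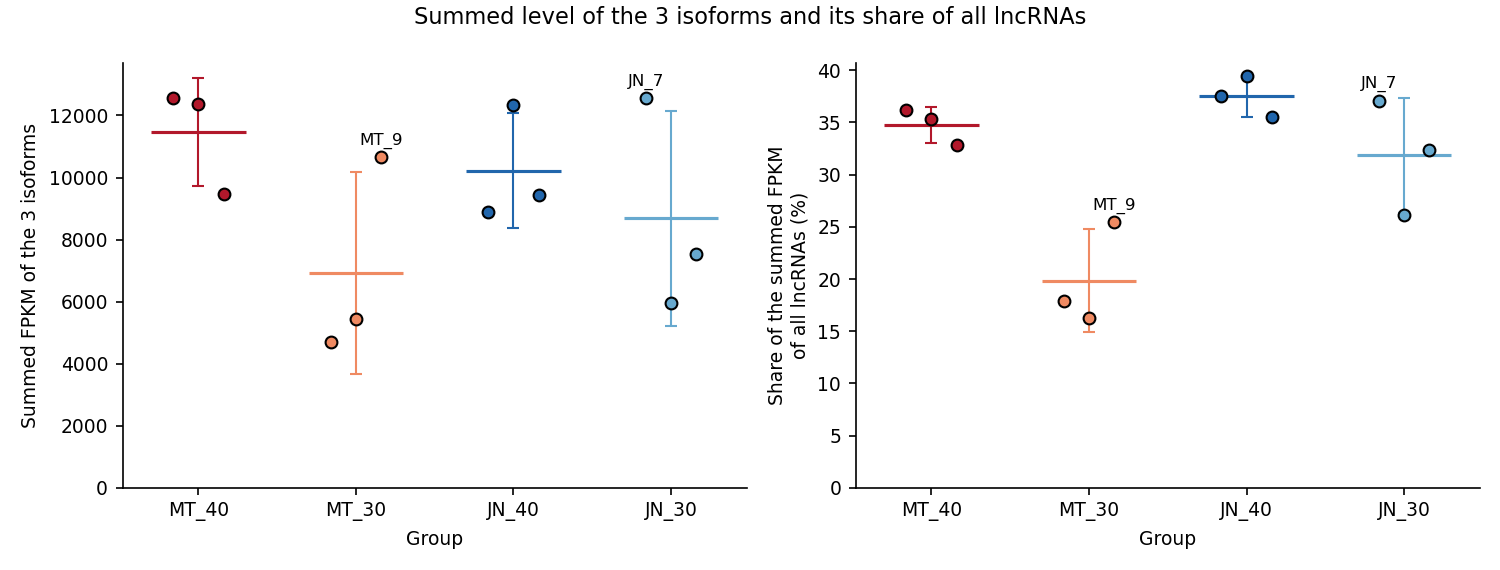
Summed FPKM of the 3 isoforms (left) and its share of the summed FPKM of all lncRNAs in percent (right), with points for libraries, long horizontal lines for group means and bars for ± 1 SD (n = 3). The sums overlap between groups (4686 to 12576 FPKM), while the shares were 32.8% to 36.2% in MT_40 and 16.3% to 25.4% in MT_30, and 35.5% to 39.5% in JN_40 and 26.1% to 37.1% in JN_30.

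Few lncRNAs followed the summed level. Of 1941 lncRNAs with a mean of at least 1 FPKM, the 5 with the highest Pearson r over the 12 libraries were MSTRG.24892.2 (0.88), MSTRG.827.1 (0.81), MSTRG.39952.4 (0.80), MSTRG.3873.1 (0.76) and MSTRG.13939.1 (0.71), with a median r of -0.01 over all. They were picked for likeness, so these values are a description. None was near the level of the isoforms: MSTRG.24892.2 averaged 1.66 FPKM in MT_40 and 1.09 FPKM in MT_30, and 1.70 FPKM in JN_40 and 1.28 FPKM in JN_30. By the mean over the 12 libraries (3588 FPKM), only the intergenic MSTRG.17790.1 on chromosome 15 lay among the isoforms. It had an r of 0.65, with means of 3746 FPKM in MT_40 and 3527 FPKM in MT_30, and of 3896 FPKM in JN_40 and 3183 FPKM in JN_30. Within MT_30 other lncRNAs also reached the level of the isoforms, such as MSTRG.28811.1 (mean 2412 FPKM, against 2375 FPKM for MSTRG.41534.2).

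Antisense lncRNAs, taken as a list, had most of their calls between MT_40 and MT_30, as had all lncRNAs. Of 209 antisense lncRNAs tested, limma called 11 higher and 4 lower in MT_40 than in MT_30, against 2.5% of all lncRNAs called. The median log2 fold change there was 0.31 against -0.10 over all lncRNAs. In JN_40 against JN_30, 2 were higher and none lower (0.197% of all called). In MT_40 against JN_40, 1 was higher and 2 were lower (0.153% of all called). In MT_30 against JN_30, 5 were higher and 3 lower (0.886% of all called). In each of these pairs of groups the share called was larger in the antisense list than over all lncRNAs, on few calls in some. For the difference of the stage effects none of the 209 was called, against 0.0766% of all lncRNAs. The antisense lncRNAs of other genes also had a higher median level than all lncRNAs (0.656 against 0.383 FPKM), which was not accounted for. The isoforms at LOC100789918 were in this list and were not among those called.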

How the data were processed

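Young pods of MT72 and JN18 at 40 d and 30 d after flowering were sequenced as total RNA depleted of ribosomal RNA, with a strand-specific kit and paired reads of 150 bases. The FPKM values were deposited by the authors, who made them with StringTie after trimming with Cutadapt. As the mapper, the methods give HISAT2 and the submitters' processing notes give TopHat2, neither with a version. Coverage, also deposited by the authors, is the mean read depth per base of each transcript, not normalized. The CPC and CNCI scores were computed by the authors, who kept transcripts longer than 200 bases without coding potential. Only the lncRNA table was analysed here.

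Coverage divided by FPKM took a constant value in each library, which was taken as its aligned bases. It was not reconciled with the read number that the study states. Estimated reads were coverage times length divided by 150. Groups came from the sample labels. For levels, 0.1 was added to each FPKM as a pseudocount, log2 was taken, and limma 3.58.1 (R 4.3.3) was run on the 9142 lncRNAs whose FPKM exceeded 0.1 in 3 or more libraries, with all 4 groups in 1 fit, a trend in the prior variance and Benjamini-Hochberg adjustment. Since the levels were high, the pseudocount hardly entered their fold changes. Isoform shares were compared with two-sided exact permutation tests in Python 3.11.15 (numpy 2.4.6, pandas 2.3.3, figures with matplotlib 3.10.9) and, chosen after the values were seen, with limma on shares in percent. The limma fit of shares took the isoforms of genes with more than 1 listed isoform and a summed FPKM above 1 in every library. Both fits were run on simulated data with known changes. The simulated spread was the same in all 4 groups, so unequal spread, as with JN_30, was not covered.

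The isoforms and lists were chosen with earlier results of these data known. Named lncRNAs are the 3 isoforms, their nearest neighbours on chromosome 6, the most abundant lncRNAs and antisense lncRNAs, and the 5 most like the summed level. The reference, a table of Glycine_max_v4.0, matched 4308 of 4607 host names. Alternatives were pseudocounts of 0.01 and 1, no filter or a filter at 1 FPKM, rescaled FPKM, fits of the compared groups alone, array weights, no trend, a replicate block, medians, shares in estimated reads and the omission of libraries. Every p-value treats the libraries as biological replicates. In limma their spread is pooled over the 4 groups and moderated over all lncRNAs or isoforms fitted. The exact tests relabel libraries and estimate no spread.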

Additional observations from a re-analysis of the deposited data

Results flagged for a closer look

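The effect of stage on the isoform share of MSTRG.41534.1 differed between MT72 and JN18. The difference of the stage effects was -61.6 points (SE 11.7, limma adjusted p = 0.0388 over 269 isoforms), with -44.3 points in MT72 and 17.3 points in JN18. In MT72 the share was lower in all 3 libraries of MT_40 than in all 3 of MT_30, and in JN18 it was higher in all 3 libraries of JN_40 than in all 3 of JN_30, where the lowest JN_40 library, at 43.9%, lay just above JN_8 at 43.3%. The call was kept in 2 of the 12 omissions of 1 library, without JN_7 (-49.4 points, limma adjusted p = 1.82e-04) and without JN_8, and lost in the other 10, with an adjusted p of up to 0.151. This test was chosen after the values had been seen.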

How the results depend on the processing

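Of 348 log2 fold changes of the isoforms under alternatives, 330 kept their direction and side of the threshold. MSTRG.41534.1 passed in MT_40 versus MT_30, which makes 1 isoform called, in the fit of the compared groups alone (adjusted p = 0.0392 by limma), with array weights (0.0399), without JN_7 and JN_9 (0.0444) and without JN_7 and JN_8 (0.0496), these pairs chosen after seeing the data. Leaving out a pair reduces JN_30 to 1 library, assumed to vary like the other groups, and with JN_9 alone the count describes that library. Values near 0 turned. For MSTRG.41534.3 in JN_40 versus JN_30 the log2 fold change was 0.031 with median-of-ratios rescaling, 0.050 rescaled to the other lncRNAs, 0.56 without JN_7 and JN_9, and 1.50 without JN_7 and JN_8, and in MT_30 versus JN_30 it was -0.54 rescaled to the other lncRNAs and -0.046 with array weights. The cause was not tested. Leaving out each library in turn gave -0.38 to 0.41 for MSTRG.41534.2 and -0.79 to 1.03 for MSTRG.41534.3 in JN_40 versus JN_30, and -0.73 to 1.09 for MSTRG.41534.3 in MT_30 versus JN_30. Rescaling to the other lncRNAs moved the median of all lncRNAs by 0.23, 0.06, -0.25 and -0.41 in the 4 comparisons (MT_40 versus MT_30, JN_40 versus JN_30, MT_40 versus JN_40, MT_30 versus JN_30), and its calls split into 137 higher and 40 lower in the first (145 and 84 in the FPKM as deposited), 6 and 4 in the third (10 and 4) and 32 and 28 in the fourth (67 and 14).

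Of 180 isoform-share differences by limma 157 were kept, and of 180 by exact tests 171. Omissions gave -69.8 to -49.4 points for the difference of the stage effects of MSTRG.41534.1, and its call was lost in 10 of 12. For MSTRG.41534.3 they gave -12.2 to 1.91 points in JN_40 versus JN_30, -6.18 to 7.91 points in MT_30 versus JN_30 (3.08 as a difference of medians) and 13.8 to 20.7 points in MT72 versus JN18, and for MSTRG.41534.2 they gave -0.90 to 6.45 points in 40 d versus 30 d. With 1 library left out, the differences over both stages or both materials mix stage with material, since the groups are then unequal. All 114 alternatives for summed shares stayed within the spread. Counts of lncRNAs called over the alternatives ran from 75 to 831 (MT_40 versus MT_30, 229 reported), 0 to 729 (JN_40 versus JN_30, 18 reported), 1 to 28 (MT_40 versus JN_40, 14 reported), 11 to 1260 (MT_30 versus JN_30, 81 reported) and 0 to 571 (difference of the stage effects, 7 reported), where 729, 1260 and 571 came without JN_7 and JN_8.

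Libraries of MT72 and JN18 share title numbers, but their deviations did not go together (r -0.16 to 0.01 over 6 pairs), so the numbers are not taken as pairing. With the replicate block the log2 fold change of MSTRG.41534.1 in MT_40 versus JN_40 was -3.34 (adjusted p = 0.860 by limma), 0 isoforms were called in MT72 versus JN18 at either stage, and 6 and 40 lncRNAs were called at 40 d and 30 d. Each isoform had at least 8236 estimated reads in every library.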
